A study of Mus musculus with 12 samples.

Results

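The 35 genes described here mark T cells, regulatory T cells and natural killer (NK) cells, and were chosen by gene symbol from the 21899 genes of a colon RNA-seq table. They comprise 14 pan-T genes, 3 coreceptor genes, 7 regulatory T genes, 7 cytotoxic and NK genes, 2 genes of naive and memory T cells and 2 lineage factors. Colon tissue came from 6 mice whose intestinal epithelial cells lacked Pck1, a rate-limiting enzyme of gluconeogenesis, and from 6 littermates labelled wild type. Both genotypes had received 2.5% DSS for 7 days. DSS, dextran sulfate sodium, injures the colon lining and causes colitis, so each difference below is between genotypes under DSS. The labels give neither the Cre driver of the deletion nor the age, sex or strain of the mice. Libraries came from whole colon, in which fewer cells of a type and less RNA per cell cannot be told apart.

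T cells recognise antigen through a receptor whose alpha and beta chains are joined to the CD3 chains, and the coreceptors CD4 and CD8 separate helper from cytotoxic T cells. Regulatory T cells, defined by the transcription factor Foxp3, restrain other T cells and are abundant in the colon, where they hold back responses to gut bacteria. Cytotoxic T cells and NK cells kill target cells with perforin and granzymes. Many of these genes are shared: activated helper T cells also carry Il2ra, Ctla4 and Icos, and innate lymphoid cells carry Il7r and Gata3.

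Library totals ran from 15348192 to 18211663 counts in the knockout and from 15881625 to 19138507 in the control mice. Levels are given as CPM, counts relative to the library total after TMM scaling, unless TPM, which also corrects for gene length, is named. Pck1 stood between 2.28 and 7.32 CPM in the knockout and between 34.5 and 84.7 CPM in the control libraries, with a log2 fold change of -3.66 ± 0.32 (SE; edgeR adjusted p = 0.000391). The 8 epithelial markers summed to 7078 to 7962 CPM in the knockout and 7550 to 10320 CPM in the control libraries. Exocrine pancreas markers were also present and reached 23200 CPM in control mouse 6 against 35.2 to 2974 CPM in the other 11 libraries.

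All 7 regulatory T genes had higher mean levels in the knockout, led by Il2ra, Ctla4 and Foxp3. Fold changes were below 0 for 10 of 14 pan-T genes, all 3 coreceptor genes and 4 of 6 tested cytotoxic and NK genes. Of all 14393 tested genes, 6485 were above 0 and 7908 below. Some members lay near 0, among them the pan-T genes Lat and Cd28 at -0.01, which were above 0 with DESeq2. The median log2 fold change was 0.65 for the regulatory T, -0.12 for the pan-T, -0.37 for the coreceptor and -0.27 for the cytotoxic and NK genes, beside -0.03 over all tested genes. No member passed the edgeR quasi-likelihood test at an adjusted p of 0.05, where 8 of 14393 tested genes passed (0.0556%). At an unadjusted p under 0.05, 4 of the 34 tested members were higher and 2 lower, beside 13.1% and 9.48% of all tested genes. DESeq2 called 3 members higher and 0 lower, beside 7.61% and 2.95% of all tested genes. These shares of members lie near those of all genes, so the 35 genes as one list did not stand apart. Ncr1 was the 1 member below the count minimum, and the other 34 had at least 10 counts in every library.

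**Figure D1:**
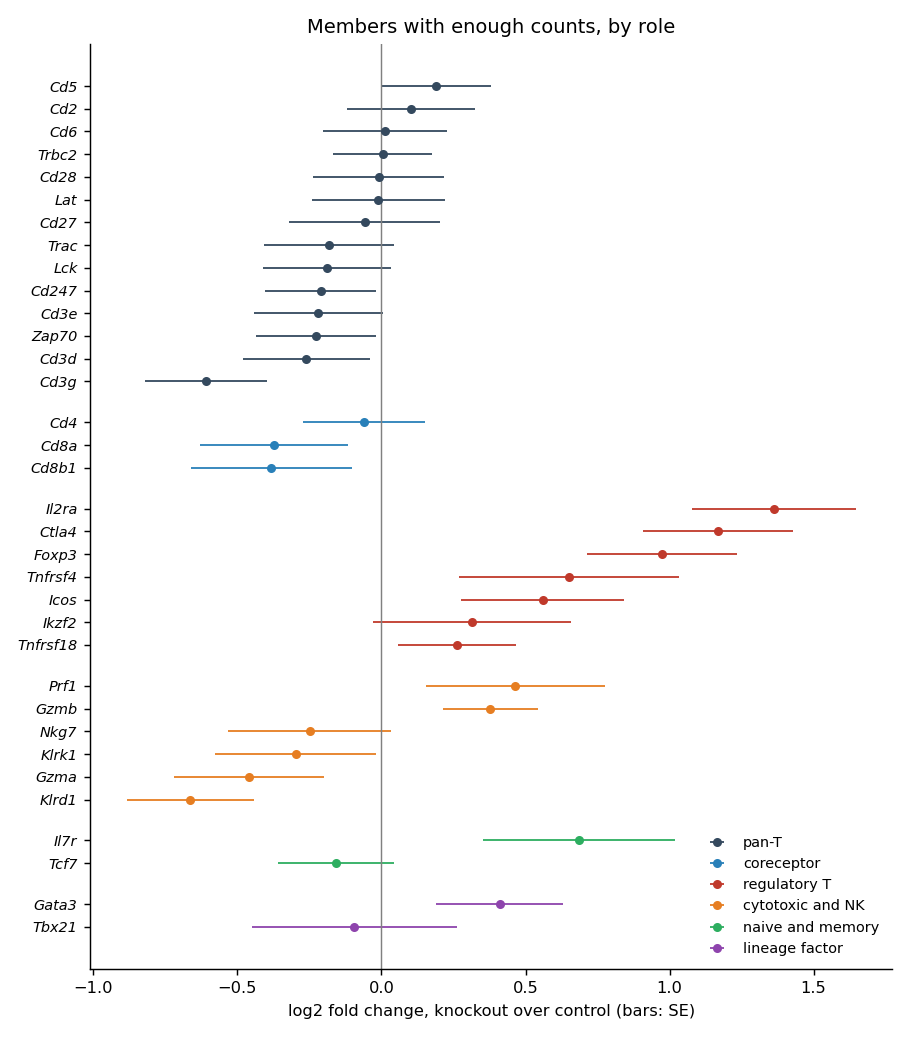
Log2 fold change of knockout over control for the 34 tested members, ordered by role and then by size, with bars for the SE from edgeR. The regulatory T genes lie to the right of 0, from 0.26 for Tnfrsf18 to 1.36 for Il2ra, while the pan-T genes run from -0.61 for Cd3g to 0.19 for Cd5.

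Levels of the members differed widely. By mean TPM over the 12 libraries the order opened with Gzma (31.1 ± 10.03 TPM, SD), Gzmb (23.1 ± 6.50) and Trbc2 (16.2 ± 3.12), followed by Cd3g (12.2 ± 4.03), Trac (11.6 ± 3.34) and Cd4 (10.4 ± 2.89). Gzma lay above Gzmb by less than its own SD but by more than that of Gzmb, and Gzmb lay above Trbc2 by more than either SD. Cd3g, Trac and Cd4 lay within 1 SD of each other. Foxp3 ranked 29 of 35 at 1.59 ± 0.894 TPM, Tbx21 ranked 34 at 1.15 ± 0.488 TPM and Ncr1 was lowest at 0.502 ± 0.321 TPM. In counts, 15 members stayed under 100 counts in every library.

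Among the pan-T genes, those of the CD3 complex and the receptor chains come first. Cd3e (ENSMUSG00000032093), an invariant signalling chain of the T cell receptor, ranged from 2.77 to 6.39 CPM in the control libraries (median 4.53) and from 3.21 to 5.74 CPM in the knockout (median 3.43). The knockout range lay inside the control range, and the log2 fold change was -0.22 ± 0.22 (SE). Trac, the constant region of the receptor's alpha chain, ran from 4.01 to 8.83 CPM in the control (median 5.94) and from 3.83 to 7.71 CPM in the knockout libraries (median 4.91), with a log2 fold change of -0.18 ± 0.23. Trbc2, a constant region of the beta chain with a near-identical copy in the genome, stood at 6.05 ± 1.16 CPM in the control and 6.06 ± 1.06 CPM in the knockout mice (SD, n = 6 each).

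Cd3g (ENSMUSG00000002033), the gamma chain of the same complex, had the largest fold change among the pan-T genes. It ran from 5.16 to 11.9 CPM in the control mice (median 7.38) and from 3.96 to 6.91 CPM in the knockout mice (median 5.17). In 3 of the 6 knockout libraries its level was below every control, and its log2 fold change was -0.61 ± 0.21 (adjusted p = 0.112). Cd3d, whose start site lies 1355 bases from that of Cd3g on the opposite strand, ran from 2.64 to 4.95 CPM in the control (median 3.17) and from 1.79 to 3.94 CPM in the knockout libraries (median 2.63), with a log2 fold change of -0.26 ± 0.22. Both overlapped between genotypes.

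The signalling genes behind the receptor showed no difference larger than the spread. Lck, the kinase that phosphorylates the CD3 chains, averaged 11.01 ± 2.88 CPM in the control and 9.66 ± 2.84 CPM in the knockout mice. Zap70, the kinase recruited to the phosphorylated chains, averaged 3.96 ± 0.896 and 3.38 ± 0.756 CPM, and Cd247, the zeta chain, 4.26 ± 0.767 and 3.68 ± 0.948 CPM. Lat, the adaptor downstream of Zap70, had a log2 fold change of -0.01 ± 0.23, and its sign turned with the scaling. The surface molecules Cd2, Cd5, Cd6, Cd27 and Cd28 had log2 fold changes from -0.06 for Cd27 to 0.19 for Cd5, each within 1 SE of 0.

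The coreceptors separate the main T cell classes. Cd4 ran from 9.57 to 27.0 CPM in the control (median 17.5) and from 13.9 to 22.6 CPM in the knockout libraries (median 15.3), with a log2 fold change of -0.06 ± 0.21. Cd8a ran from 5.10 to 11.8 CPM (median 7.26) and from 3.36 to 8.76 CPM (median 5.85), with a log2 fold change of -0.37 ± 0.26. Cd8b1, its partner chain, ran from 1.73 to 4.51 CPM (median 2.36) and from 0.989 to 2.72 CPM (median 2.32), with a log2 fold change of -0.38 ± 0.28. All 3 genes overlapped between genotypes. Macrophages and dendritic cells can also carry Cd4, and the levels of macrophage markers are given below.

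Among the tested members the 3 largest fold changes belonged to Il2ra, Ctla4 and Foxp3, all regulatory T genes. Foxp3 (ENSMUSG00000039521) was measured at 3.67, 3.71, 2.90, 2.28, 1.87 and 3.58 CPM in knockout mice 1 to 6 and at 1.36, 1.28, 1.15, 2.34, 0.97 and 2.05 CPM in control mice 1 to 6. Knockout mice 4 and 5 fell within the control range, and the other 4 lay above every control. Its log2 fold change was 0.97 ± 0.26 (edgeR adjusted p = 0.0636), a 1.97-fold higher level. GENCODE places exons of the noncoding gene Flicr, on the same strand, and of 3 other genes, on the opposite strand, over exons of Foxp3. Whether counting used strand is not given in the sources used here, and strand would not separate Flicr from Foxp3. Exons of Cd3e, Cd247, Ikzf2, Tnfrsf18 and Gata3 are overlapped by antisense or other genes too, and those of Lck, Cd27 and Lat by microRNA genes. For Cd247, Gata3, Lck, Cd27 and Lat an overlapping gene lies on the same strand. How reads in shared exons were counted is not known for any of these members.

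Il2ra (ENSMUSG00000026770), the alpha chain of the interleukin 2 receptor, which gives regulatory T cells their high affinity for that cytokine, had the largest difference. Its levels were 15.6, 16.1, 10.8, 6.25, 5.31 and 13.6 CPM in knockout mice 1 to 6 and 4.07, 3.56, 3.50, 5.41, 3.65 and 6.09 CPM in control mice 1 to 6. All knockout libraries except that of mouse 5 lay above every control. The log2 fold change was 1.36 ± 0.28 (adjusted p = 0.0531), a 2.57-fold higher level.

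Ctla4 (ENSMUSG00000026011), an inhibitory receptor that competes with Cd28 for Cd80 and Cd86, was measured at 10.9, 8.23, 9.04, 3.42, 5.01 and 7.22 CPM in the knockout and at 2.96, 3.34, 3.15, 4.67, 2.74 and 2.59 CPM in the control libraries. Knockout mouse 4 was the only one within the control range. The log2 fold change was 1.17 ± 0.26 (adjusted p = 0.0531). These 3 genes are also the members that the authors' deposited table lists at an FDR under 0.05, with an FDR of 0.000451 for Il2ra, 0.0014 for Ctla4 and 0.0108 for Foxp3. By DESeq2 on the same counts the adjusted p was 0.000394, 0.00124 and 0.00945 in that order.

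The calls for these 3 genes turned on single libraries. Without the library of knockout mouse 4, edgeR called all 3, with adjusted p = 0.0221 for Il2ra, 0.0197 for Ctla4 and 0.0363 for Foxp3, where it called 6.02% of all tested genes higher. Without control mouse 4 it called all 3 as well, at 0.023, 0.0208 and 0.0275, beside 5.03% of all tested genes. Without control mouse 6 it called Il2ra at 0.0493, beside 1.88%. Without both mice numbered 4, a setting chosen after seeing the data, another regulatory T gene passed, Tnfrsf4, with a log2 fold change of 1.17 (adjusted p = 0.019), beside 8.4% of all tested genes called higher. With all libraries edgeR called 4 genes higher in all, so these settings raised the number of calls across the table and not among the members alone. The median log2 fold change of the 7 regulatory T genes was 0.98 without control mouse 4 and 1.17 without both.

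The other regulatory T genes had smaller differences. Icos, a costimulatory receptor, averaged 4.80 ± 1.79 CPM in the control and 7.08 ± 2.16 CPM in the knockout mice, with a log2 fold change of 0.56 ± 0.28. Tnfrsf4, which encodes OX40, had a log2 fold change of 0.65 ± 0.38 with all libraries and was measured at 4.24 CPM in control mouse 4 against 1.23 to 2.13 CPM in the other controls. Tnfrsf18, which encodes GITR, stood at 2.88 ± 0.540 and 3.45 ± 0.976 CPM, and Ikzf2, the Helios gene, at 5.44 ± 1.81 and 6.78 ± 3.22 CPM. Ikzf2 did not follow Foxp3 across mice: it was lowest among the knockouts in mouse 2, at 2.51 CPM, where Foxp3 was highest.

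Because Il2ra, Ctla4 and Foxp3 had the largest fold changes among the tested members, the sequence before their start sites is shown. These are windows from RefSeq on GRCm38.p6, used for 24 of the 35 members, written 5′ to 3′ on the strand of the gene. Il2ra is at chr2:11642542-11642791 (plus strand) and Ctla4 at chr1:60908775-60909024 (plus strand), both the 250 bases before the start. Foxp3 is at chrX:7579426-7579566 (plus strand), where 141 bases are shown up to the first annotated exon. Capitals mark GGAAA, the core letters of NFAT sites, read on either strand as GGAAA or TTTCC.
Il2ra: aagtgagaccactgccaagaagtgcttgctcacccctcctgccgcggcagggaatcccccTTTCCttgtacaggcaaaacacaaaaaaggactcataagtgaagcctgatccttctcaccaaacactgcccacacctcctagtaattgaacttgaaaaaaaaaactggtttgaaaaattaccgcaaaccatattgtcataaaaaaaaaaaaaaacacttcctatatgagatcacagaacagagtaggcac
Ctla4: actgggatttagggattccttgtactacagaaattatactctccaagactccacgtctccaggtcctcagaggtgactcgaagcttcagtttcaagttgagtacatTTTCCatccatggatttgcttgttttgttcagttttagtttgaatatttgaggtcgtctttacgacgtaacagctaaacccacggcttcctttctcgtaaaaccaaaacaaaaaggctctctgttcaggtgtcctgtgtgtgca
Foxp3: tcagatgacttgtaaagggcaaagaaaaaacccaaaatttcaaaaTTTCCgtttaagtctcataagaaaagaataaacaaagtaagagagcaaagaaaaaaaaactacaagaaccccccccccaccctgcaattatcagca
The 24 members had 30 windows, and for the counts over members only the first listed window of each was searched. GGAAA was in that window for all 5 regulatory T members that had one, Il2ra, Ctla4, Foxp3, Tnfrsf4 and Tnfrsf18, and in 6 of 9 pan-T windows. It is a short motif, present in 55.6% of all 32851 windows of 250 bases. The forkhead letters TGTTTAC, held by 3.2% of all windows, were in 0 of the 24 searched member windows. TATAAA, held by 12.4% of all windows, was in the window of Foxp3 only, nearer the start than the stretch shown. A match is a description of these letters and no evidence of binding.

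**Figure D2:**
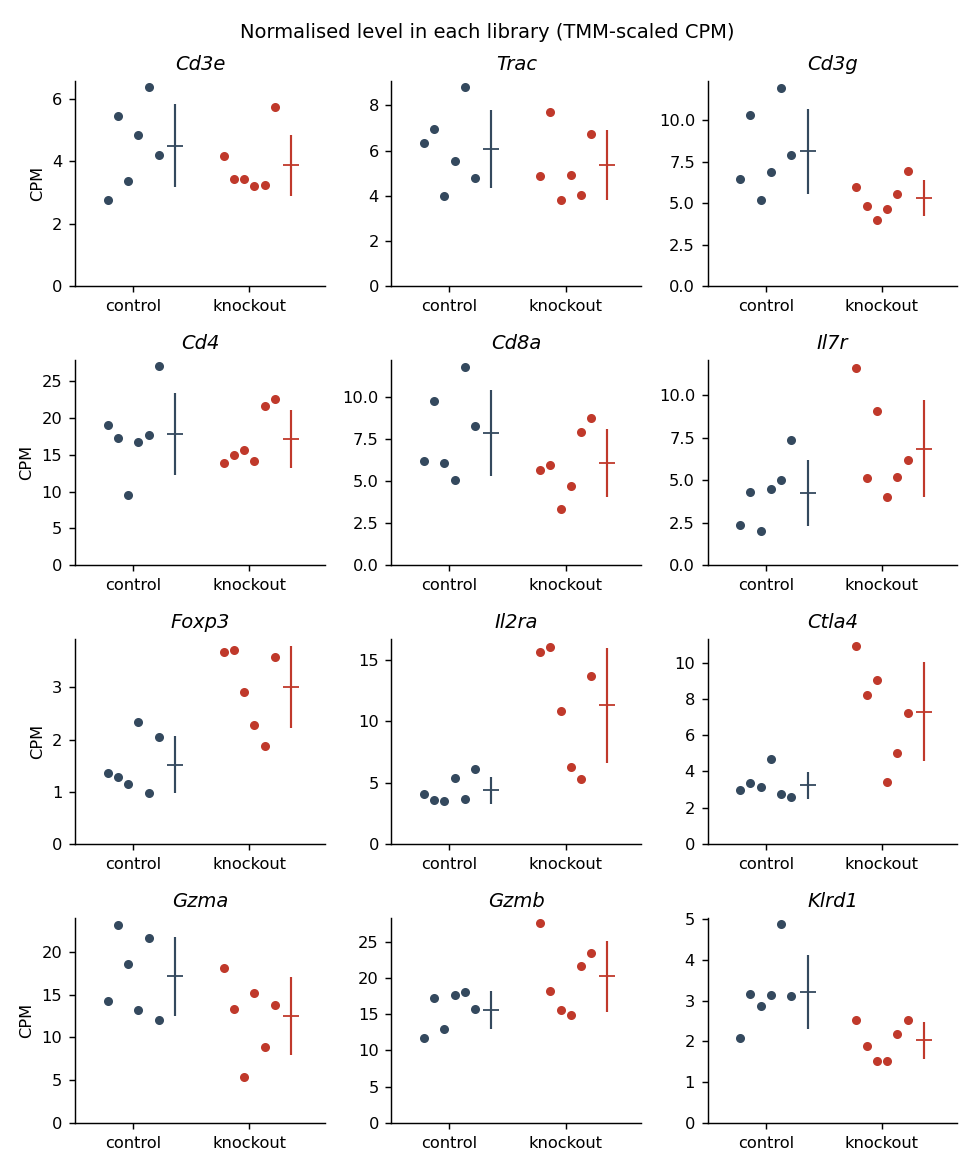
Level in TMM-scaled CPM of 12 members in each library (points), with the mean and SD of 6 mice beside them, control in grey and knockout in red. Il2ra and Ctla4 each have 5 knockout mice above every control and Foxp3 has 4. For Cd3e and Cd4 all knockout mice lie within the control range, and for Trac all but 1.

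The cytotoxic and NK genes had fold changes on both sides of 0. Gzmb (ENSMUSG00000015437), granzyme B, ran from 11.7 to 18.1 CPM in the control (median 16.4) and from 14.8 to 27.5 CPM in the knockout mice (median 19.9). In 4 knockout libraries it was above every control, and its log2 fold change was 0.38 ± 0.17 (adjusted p = 0.198). Gzma (ENSMUSG00000023132), granzyme A, ran from 12.1 to 23.1 CPM (median 16.4) and from 5.41 to 18.1 CPM (median 13.6), with a log2 fold change of -0.46 ± 0.26. The count of Gzmb per count of Gzma was 0.979 to 2.89 in the knockout and 0.698 to 1.34 in the control mice, with overlap at knockout mouse 4.

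Klrd1, which encodes CD94, a partner of NKG2 receptors on NK and CD8 T cells, ran from 2.10 to 4.87 CPM in the control (median 3.13) and from 1.52 to 2.53 CPM in the knockout mice (median 2.03). It was below every control in 3 knockout mice, with a log2 fold change of -0.66 ± 0.22 (adjusted p = 0.103). Ncr1, which encodes NKp46 and is largely restricted to NK cells and some innate lymphoid cells, gave 3, 3, 0, 2, 6 and 9 counts in the knockout and 6, 14, 5, 8, 13 and 13 counts in the control libraries. That is 23 against 59 counts in all. With no count minimum edgeR gave it a log2 fold change of -1.26 and an adjusted p of 0.218. Klrk1, the NKG2D gene, and Nkg7, a granule protein, had log2 fold changes of -0.30 ± 0.28 and -0.25 ± 0.28, while Prf1, perforin, had 0.46 ± 0.31.

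The windows before the start sites of the cytotoxic and NK genes are shown for a motif they share. TGTGGT, the core letters of Runx sites, on either strand, was in the windows of all 5 cytotoxic and NK members whose window was used, Gzma, Gzmb, Prf1, Ncr1 and Klrk1, against 14.0% of all windows. Outside that group it was in 1 of 9 pan-T windows, that of Lck, and in 0 of 5 regulatory T windows. The 2 granzyme windows are shown whole, Gzmb at chr14:56262335-56262584 (minus strand) and Gzma at chr13:113100982-113101231 (minus strand), since the fold changes of these 2 genes had opposite signs. Capitals mark the Runx, NFAT and AP-1 letters on either strand. The AP-1 letters searched were TGANTCA, and on the minus strand the Runx letters read ACCACA.
Gzmb: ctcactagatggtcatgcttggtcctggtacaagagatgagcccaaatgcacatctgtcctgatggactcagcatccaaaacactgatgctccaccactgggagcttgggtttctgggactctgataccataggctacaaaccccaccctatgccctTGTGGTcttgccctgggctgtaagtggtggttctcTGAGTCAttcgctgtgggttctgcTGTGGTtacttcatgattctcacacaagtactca
Gzma: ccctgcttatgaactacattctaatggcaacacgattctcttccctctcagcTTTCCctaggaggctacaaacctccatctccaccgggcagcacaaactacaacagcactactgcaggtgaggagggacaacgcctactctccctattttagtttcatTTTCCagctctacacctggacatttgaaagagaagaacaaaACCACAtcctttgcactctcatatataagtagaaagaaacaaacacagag
TGANTCA, held by 6.7% of all windows, was in the window of Gzmb alone among the 24 members, 58 bases before the start, between 2 TGTGGT matches at 93 and 34 bases. The Gzma window held 1 Runx match, 50 bases before the start, and 2 GGAAA matches. For the other 3 genes only the bases around the match nearest the start are shown, again with the Runx letters in capitals. They are Prf1 at chr10:61297686-61297731 (plus), Ncr1 at chr7:4337654-4337699 (plus) and Klrk1 at chr6:129623968-129624013 (minus).
Prf1: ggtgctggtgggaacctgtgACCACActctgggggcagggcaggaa
Ncr1: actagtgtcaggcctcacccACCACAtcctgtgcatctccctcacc
Klrk1: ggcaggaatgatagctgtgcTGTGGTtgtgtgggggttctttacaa
The motifs were picked with the members in view, so the shares are descriptions.

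Il7r, the interleukin 7 receptor of naive and memory T cells, ran from 2.01 to 7.38 CPM in the control (median 4.39) and from 4.02 to 11.6 CPM in the knockout mice (median 5.68), with a log2 fold change of 0.69 ± 0.33. Tcf7, a transcription factor of the same cells, ran from 5.33 to 12.2 CPM (median 9.72) and from 6.03 to 10.97 CPM (median 8.44), with a log2 fold change of -0.16 ± 0.20. Of the lineage factors, Gata3 (type 2 helper and regulatory T cells) ran from 1.38 to 2.78 CPM (median 1.84) and from 1.63 to 3.33 CPM (median 2.62), with a log2 fold change of 0.41 ± 0.22. Tbx21 (T-bet, of type 1 helper and NK cells) ran from 0.573 to 2.23 CPM (median 1.89) and from 0.660 to 2.59 CPM (median 1.48), with a log2 fold change of -0.09 ± 0.36. None of these 4 genes passed the test.

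No member separated the genotypes completely: all 35 overlapped in CPM, beside 0.882% of all tested genes that were higher and 0.639% that were lower without overlap. Setting a gene against Cd3e within each library asks whether it differs relative to a T cell gene. The log2 ratio of Foxp3 to Cd3e averaged -0.37 ± 0.33 (SD) in the knockout and -1.504 ± 0.66 in the control mice, a difference of 1.14. All 6 knockout mice lay above every control (exact two-sided permutation test, p = 0.00216, the smallest that 6 against 6 can give; 0.00505 adjusted over 7 ratios). The ratio of Il2ra to Cd3e differed by 1.45 and that of Ctla4 to Cd3e by 1.27, with the same counts of mice and the same exact p. The members were chosen with earlier results of these data known, and these numerators had the largest fold changes among the tested members. The exact p-values, adjusted over 7 ratios and not over all genes, therefore describe the separation and are no independent support for it. For Ctla4 the groups were all but touching, with 0.0914 in knockout mouse 4 and 0.0894 in control mouse 1.

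The ratio of Gzmb to Cd3e also rose, by 0.55 with 5 of 6 knockout mice above every control (exact p = 0.00433; 0.00758 adjusted). The ratio of Ncr1 to Cd3e fell by 0.92, with 5 of 6 knockout mice below every control (exact p = 0.013; 0.0182 adjusted), on the few counts given above. The size for Ncr1 depends on the prior count added before the log, here 2: it was -1.40 with 0.5 and -0.57 with 5. With Trac in place of Cd3e, neither of these 2 passed: the adjusted exact p was 0.0788 for Gzmb and 0.053 for Ncr1. With the summed counts of 6 receptor genes in place of Cd3e both passed, at 0.61 for Gzmb (adjusted exact p = 0.00505) and -0.87 for Ncr1 (0.0424). Both denominators were chosen after seeing the data. Cd8a to Cd4 differed by -0.35 (exact p = 0.197) and Cd3e to Ptprc, the gene of the pan-leukocyte marker CD45, by -0.32 (exact p = 0.251). Of the 33 members set against Cd3e in this way, 3 were higher without overlap, Il2ra, Ctla4 and Foxp3, beside 0.667% of all tested genes. None was lower without overlap, beside 0.00695% of all tested genes. The separation of Il2ra, Ctla4 and Foxp3 depended on denominator and scale, since an exact p above 0.00216 means that the groups overlapped. With Trac as denominator the exact p was 0.00216 for Foxp3, 0.00433 for Il2ra and 0.00649 for Ctla4. With the 6 receptor genes it was 0.00216 for Foxp3 and Il2ra and 0.00433 for Ctla4. Over Cd3e on TPM + 0.1 it was 0.00649 for Foxp3 and 0.00216 for Il2ra and Ctla4. In these settings all 3 stayed under an adjusted p of 0.05.

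**Figure D3:**
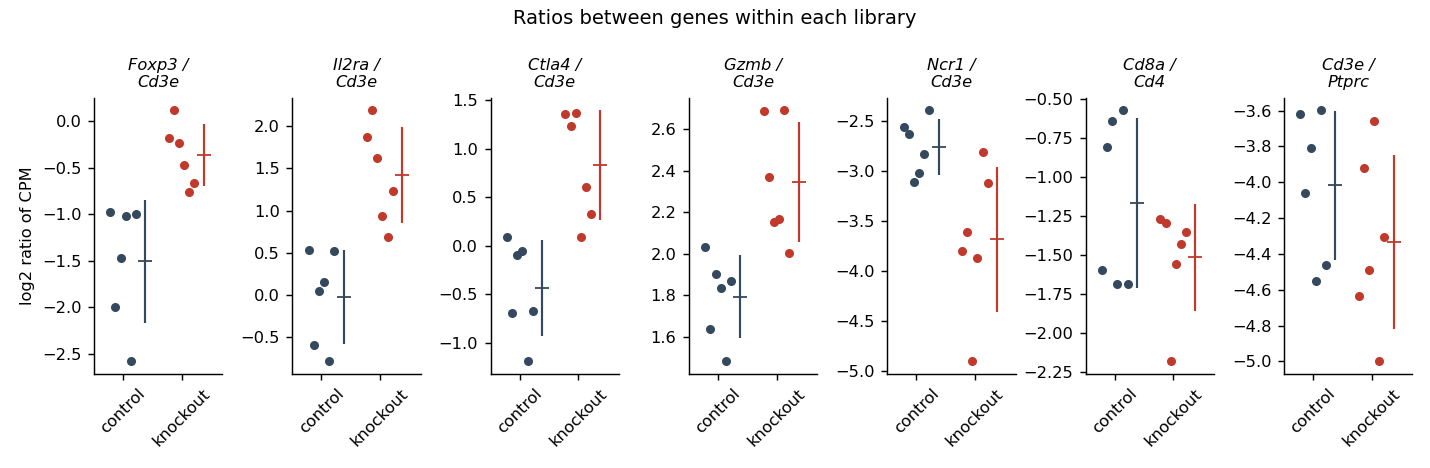
Log2 ratio of 2 genes within each library (points), with the mean and SD of 6 mice, for the 7 ratios tested; each panel has its own axis. The knockout mice lie above all controls for Foxp3, Il2ra and Ctla4 over Cd3e, and the groups overlap for Cd8a over Cd4 and Cd3e over Ptprc.

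As groups, the roles differed from mouse to mouse. Taking each gene's log2 CPM from its mean over all libraries and averaging, the regulatory T genes stood 0.57, 0.39, 0.98, -0.08, 0.18 and 0.41 above the pan-T genes in knockout mice 1 to 6. In control mice 1 to 6 they stood at -0.53, -0.79, -0.16, 0.13, -0.78 and -0.31. Knockout mouse 4 and control mouse 4 were the libraries that crossed. The same difference for the cytotoxic and NK genes ran from -0.19 to 0.23 in the knockout and from -0.19 to 0.27 in the control mice, so relative to pan-T genes that group did not separate the genotypes. Control mouse 3 was the lowest control for 10 of the 14 pan-T genes and control mouse 5 the highest for 9, while knockout mouse 3 was the lowest knockout for 6.

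**Figure D4:**
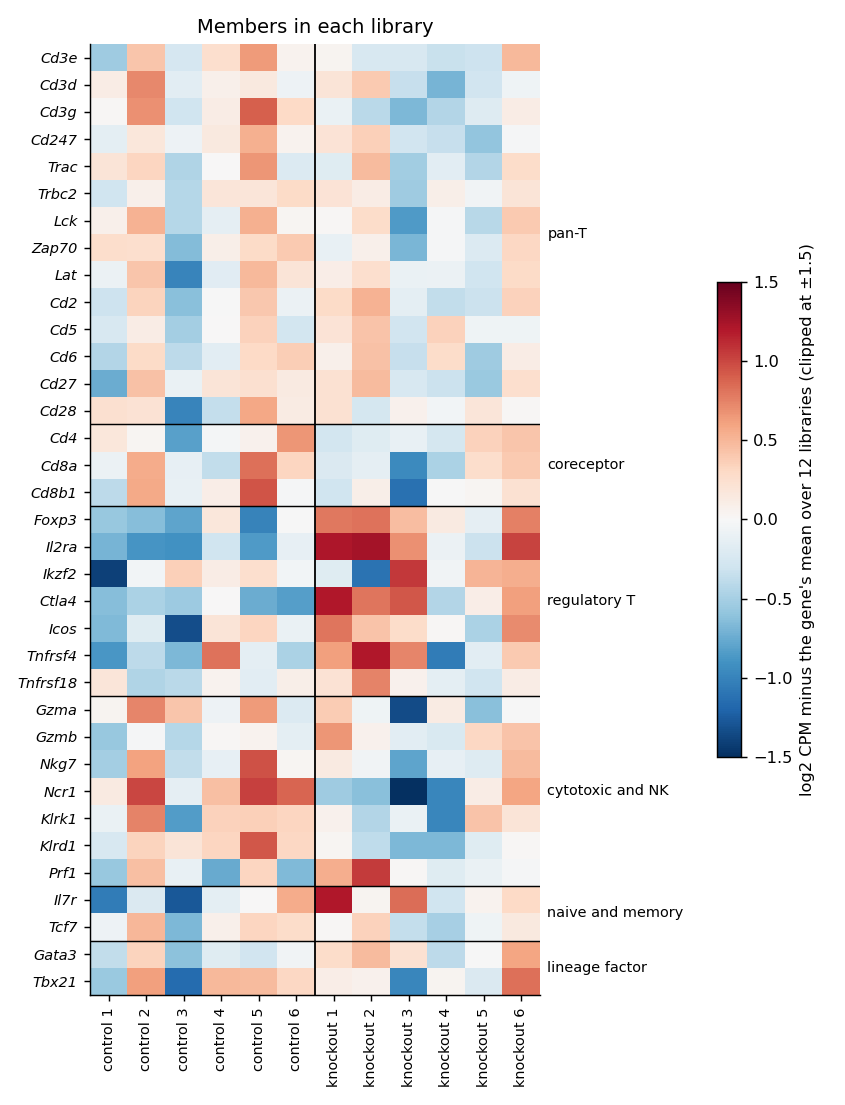
Log2 CPM of the 35 members minus each gene's mean over the 12 libraries (red above, blue below, clipped at 1.5), rows by role and columns by mouse. Foxp3, Il2ra and Ctla4 are red in knockout mice 1, 2, 3 and 6 and pale in mouse 4, while pan-T rows vary by mouse in both genotypes.

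The markers of other cell types were measured in the same libraries. All 7 neutrophil markers had fold changes above 0 (median 1.81), and they summed to 643, 1083, 1219, 250, 255 and 272 CPM in knockout mice 1 to 6 and to 128 to 567 CPM in the controls. Knockout mice 1, 2 and 3 were thus highest for neutrophil markers and had the 3 highest ratios of Foxp3 to Cd3e and of Il2ra to Cd3e. Other mice did not follow that order. Knockout mouse 6, with 272 CPM, exceeded knockout mouse 3 in the level of Foxp3 (3.58 against 2.90 CPM) and of Il2ra (13.6 against 10.8 CPM). Control mouse 4, highest among the controls for Ctla4 and Tnfrsf4, was the control with 567 CPM. Its ratios to Cd3e were -1.02 for Foxp3 and 0.15 for Il2ra. Knockout mice 4, 5 and 6, lower for neutrophil markers, had -0.47, -0.76 and -0.66 for Foxp3 and 0.94, 0.68 and 1.23 for Il2ra. All 8 macrophage markers were above 0 (median 0.44), at 613 to 1015 CPM in the knockout and 408 to 647 CPM in the control mice. The 8 B cell markers summed to 30.0 to 87.3 CPM and 30.4 to 86.2 CPM. Of the other tested markers, 5 of 6 innate lymphoid, 3 of 6 dendritic, 4 of 6 mast cell, 2 of 2 platelet, 1 of 8 B cell, 1 of 8 epithelial, 0 of 5 smooth muscle and 0 of 8 pancreas genes were above 0. No marker list had a gene past the edgeR threshold. At an unadjusted p under 0.05, 5 neutrophil, 5 macrophage and 2 platelet markers were higher, beside 13.1% of all tested genes. DESeq2 called 1, 4 and 2 of them higher, beside 7.61%. Of the 8 epithelial markers, 5 were lower at that unadjusted p, beside 9.48% of all tested genes. DESeq2 called 1 of them lower, beside 2.95%. No other marker list had more than 1 gene under that unadjusted p. The summed levels of the neutrophil, macrophage and epithelial lists overlapped between genotypes, and the part of these cells in the differences of the members was not tested.

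After the group means were removed, Foxp3 correlated across the 12 libraries with Il2ra at r = 0.89, with Ctla4 at 0.61 and with Ikzf2 at -0.21, while its median r with the 14 pan-T genes was 0.25. The 5 non-members most like Foxp3 were Dram1 (r = 0.93), Csf2rb2, Hdc, Emilin2 and Ltb4r1 (0.91). Each of them correlated with Foxp3 more closely than any member did. Hdc is in the list of mast cell markers, with a log2 fold change of 1.34. The other tested genes of that list ran from -0.46 for Cma1 to 0.40 for Mcpt1. Cd3e was most like Nlrc3 (0.89), Ptpn7, Gimap4, Klrc1 and Pnpla1 (0.83), and its median r was 0.59 with the pan-T genes and 0.67 with the cytotoxic and NK genes. Gzmb was most like Cd69 (0.96), an early activation marker, then Ubd, Il18r1, Gimap4 and Gbp8 (0.89). These values are descriptions over libraries that share depth, scaling and tissue makeup.

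The list of further regulatory T genes had a median above 0 as well. Of 10 tested, 9 had fold changes above 0 (median 0.75) and 0 were called by edgeR. At an unadjusted p under 0.05, 9 were higher, beside 13.1% of all tested genes. DESeq2 called 6 higher, beside 7.61% of all tested genes. Il1rl1, the interleukin 33 receptor, stood at 49.4 ± 30.6 CPM in the control and 191 ± 72.6 CPM in the knockout mice without overlap, with a log2 fold change of 1.95 ± 0.38 (edgeR adjusted p = 0.0512). It is also carried by innate lymphoid and mast cells and by stroma, and in the knockout mice it made up most of the innate lymphoid marker list, which summed to 212 to 452 CPM in the knockout and 121 to 197 CPM in the control mice. Tnfrsf9, which encodes 4-1BB, had 1.75 ± 0.34 (adjusted p = 0.0512), and Il10, an anti-inflammatory cytokine, averaged 0.831 ± 0.380 CPM in the control and 2.85 ± 1.49 CPM in the knockout mice without overlap. Other genes of this list stood far above Foxp3, which averaged 1.52 CPM in the control mice. Capg averaged 112, Maf 26.9 and Lrrc32 20.1 CPM there. How much of the level of any gene in this list came from regulatory T cells was not tested.

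Other lists had 0 genes past the edgeR threshold as well. Of 13 tested further T cell genes 5 were above 0 and 8 below (median -0.18). Bcl11b, a T lineage transcription factor also found in epithelium, had -0.69 ± 0.23 with all 6 knockout mice below every control, and Fyn, a kinase, 0.37 ± 0.15. Among 8 tested further cytotoxic and NK genes, 5 above 0, Fcer1g had 0.91 ± 0.22 and Cd244a 0.68 ± 0.32, and both are also carried by myeloid cells. Of the 6 gamma delta T genes 4 were below 0, among them Trgc1 (-0.71 ± 0.30), while Trdc, the delta chain constant region, had 0.94 ± 0.35.

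Of the 12 T cell cytokines only 4 had enough counts to test, all above 0, led by Tnfsf11 (1.63 ± 0.42) and Il17a (1.72 ± 0.63; 1.31 CPM in the knockout). Among 13 trafficking receptors, 8 above 0 and 5 below, S1pr1 had 0.85 ± 0.23. Itgae, the integrin chain that holds T cells in the epithelium, had -0.66 ± 0.18 with all 6 knockout mice below every control. Of 10 tested chemokines 7 were above 0, with 0.42 ± 0.16 for Cxcl16 and -0.60 ± 0.23 for Ccl20. In 10 coinhibitory genes, 7 above 0, Havcr2 had 0.93 ± 0.22 and Cd274 0.96 ± 0.27. Of 5 tested costimulatory ligands 4 were above 0, with 1.55 ± 0.32 for Tnfsf9, the ligand of Tnfrsf9, without overlap, and 1.60 ± 0.34 for Cd80, a ligand of Ctla4 and Cd28. Of 7 tested T cell growth cytokines 4 were above 0, with 0.68 ± 0.18 for Tgfb1 and 1.45 ± 0.44 for Il33, the ligand of Il1rl1. The smallest edgeR adjusted p in these 9 lists was 0.0531, for Tnfsf9 and Cd80.

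**Figure D5:**
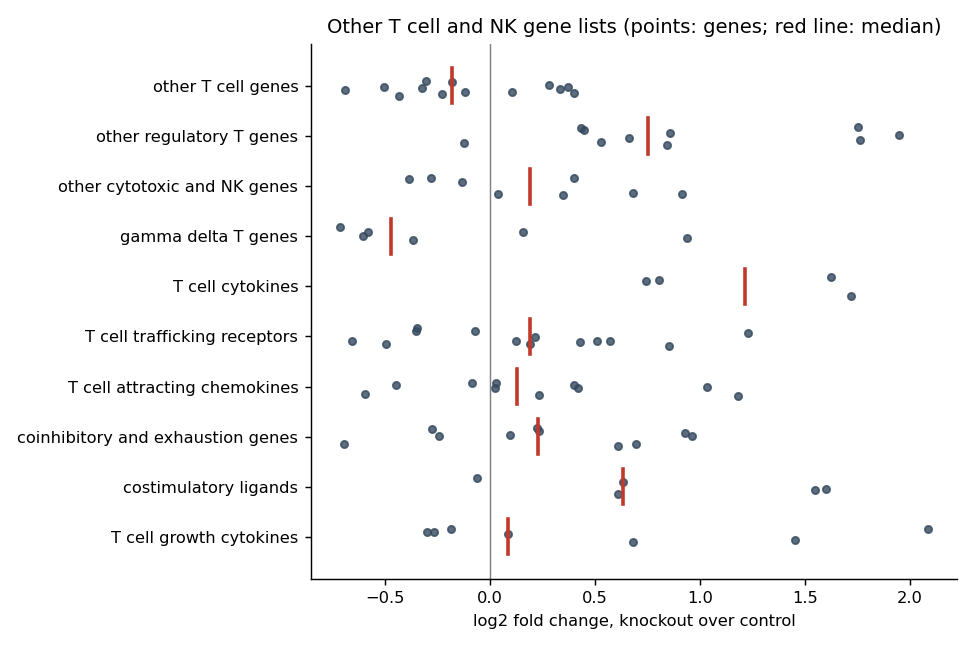
Log2 fold change of knockout over control for each tested gene of 10 further lists (points, spread vertically at random), with a red line at each list's median. The regulatory T list is centred at 0.75 and the further T cell genes at -0.18, and most lists spread over both sides of 0.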

How the data were processed

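The authors deposited 1 table of 21899 genes for the series, per the file headers with raw read counts and TPM per library, mean TPM per group, a log2 fold change, and a p-value and FDR from an unnamed test. No source used here names the aligner, the counter or the strand setting. Per the labels' protocols, Trizol was used for extraction and a SMARTER mRNA-Seq kit for library preparation.

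Counts were tested with edgeR 4.0.16 in R 4.3.3 (filterByExpr, TMM, quasi-likelihood F test over all 14393 genes kept, Benjamini-Hochberg adjustment, threshold 0.05), with SE from the fold change and F. Ratios were taken from log2 CPM (prior count 2) and tested by exact permutation. DESeq2 1.42.0, limma 3.58.1, other scalings, filters and left-out libraries were alternatives. The fit was tested on simulated data. The members and lists were chosen with earlier results of these data known. All members could be named. Values in every library, or their range and median, were given for 9 fixed members and the 2 smallest p per role. Elsewhere the 2 smallest p per list were named. Of 212 list genes 207 were matched by symbol and 4 by gene ID. Il10 was singled out after its values were seen. Replicates are mice numbered in the labels. The start-site window of 1 member is not reported here.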

Additional observations from a re-analysis of the deposited data

Results flagged for a closer look

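In 6 of 84 groups of 6 mice examined, 1 mouse lay farther from its nearest neighbour than Dixon's 95% limit allows, and chance flags about 1 group in 20. Among the controls, Cd3d was highest in mouse 2 at 4.95 CPM, with the next at 3.29 CPM, and Zap70 was lowest in mouse 3 at 2.24 CPM, with the next at 3.81 CPM. Ikzf2 was lowest in control mouse 1 at 2.03 CPM, with the next at 5.39 CPM. Control mouse 4 was highest for Ctla4, at 4.67 CPM before 3.34 CPM, and for Tnfrsf4, at 4.24 CPM before 2.13 CPM. The log2 ratio of Cd8a to Cd4 was lowest in knockout mouse 3, at -2.18, with the next at -1.56.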

How the results depend on the processing

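The 7 ratios kept their direction in all settings. With the replicate number as a block, the ratio Foxp3 to Cd3e (1.14), ratio Il2ra to Cd3e (1.45), ratio Ctla4 to Cd3e (1.27) and ratio Gzmb to Cd3e (0.55) had an adjusted p of 0.0547 and the ratio Ncr1 to Cd3e (-0.92) 0.0875, where an exact sign-flip test of 6 pairs cannot give less than 0.0313. Before adjustment the Foxp3, Il2ra, Ctla4 and Gzmb ratios stood at that smallest value. Because the other ratios lay above it, adjustment could not leave them under 0.05. With Trac as denominator, chosen after seeing the data, the ratio Gzmb to Cd3e became 0.54 and the ratio Ncr1 to Cd3e -0.94. With 6 receptor genes as denominator they were 0.61 and -0.87 and passed, and with a prior count of 0.5 or 5 the latter was -1.40 or -0.57. The labels give same-numbered mice only the same number, and whether they were paired is not known. Their deviations correlated at -0.50 to 0.08 and none correlated best with its own, which cannot exclude a pairing. With each library left out, these 5 ratios ran from 0.92 to 1.24, 1.29 to 1.59, 1.12 to 1.41, 0.48 to 0.62 and -1.10 to -0.68, the ratio Cd8a to Cd4 from -0.45 to -0.22 and the ratio Cd3e to Ptprc from -0.45 to -0.18.

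Against 4 genes called higher and 4 genes called lower, the counts were 33 and 19 with DESeq2's size factors, 230 and 45 with library size only, 32 and 21 with robust quasi-likelihood, 1095 and 424 with DESeq2, 30 and 19 with voom, 1549 and 1339 with quality weights, 355 and 48 on log2(TPM + 1), 365 and 48 on log2(TPM + 0.1), 0 and 1 with the replicate block, and 1209 and 702 without both mice numbered 4. Leaving out each library gave 0 to 870 and 2 to 402. The members called were 0 with edgeR on all libraries, 2 with library size only and with either TPM scale, 3 with DESeq2, 4 with quality weights, 4 without both mice numbered 4 and 0 to 3 with each library left out. Il2ra was called in 9 of 25 settings, Ctla4 in 8 and Foxp3 in 5; with quality weights Gzmb was called (0.52, adjusted p = 0.0325). The median log2 fold change of regulatory T members was 1.17 without both mice numbered 4 and 0.54 to 0.98 with each library left out, that of pan-T members -0.20 to -0.03 and that of cytotoxic and NK members -0.39 to -0.15.

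Near 0, the sign of 8 members turned. Lat was 0.0014 with DESeq2's size factors, 0.0399 with library size only, 0.00039 with the upper quartile, 0.011 with no filter, 0.0013 with DESeq2, 0.053 with voom, 0.064 with weights, 0.16 and 0.19 on TPM and 0.045 with the block. Cd28 was 0.0052, 0.038, 0.013 (no filter), 0.00496, 0.064, 0.19, 0.067, 0.12 and 0.053 in the same order without the upper quartile. Cd4 was 0.15 with weights and 0.029 and 0.034 on TPM, Tbx21 0.11 with weights and 0.0032 on log2(TPM + 0.1), and Cd6 -0.087 with weights. Without both mice numbered 4, Cd6 was -0.075 and Cd27 0.037. Leaving out each library gave -0.073 to 0.094 for Trbc2, -0.16 to 0.10 for Lat, -0.00401 to 0.20 for Cd2, -0.085 to 0.10 for Cd6, -0.19 to 0.042 for Cd27, -0.16 to 0.13 for Cd28, -0.19 to 0.10 for Cd4 and -0.32 to 0.055 for Tbx21. The cause of these turns was not tested. The other 26 tested members kept their sign in all 25 settings. Depth limits what can be seen for Ncr1, with 0 to 14 counts in each library.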
